A study of Mus musculus with 12 samples.

Results

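The genes described here encode the subunits of potassium channels, the membrane proteins that let potassium cross the cell membrane and so set the resting potential and end electrical impulses. They were taken as the protein-coding genes of the deposited expression table whose symbol is Kcn, 1 further letter and a number, leaving out Kcnj8, Kcnj10 and Kcnj13. The rule gave 77 genes of the 56748 in the table, and 62 of them passed the filter on low values and were tested among 19571 genes. No measured value entered the rule itself, but the channel genes were chosen with earlier results of these data known.

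Brain RNA of 12 adult mice of the inbred strain C57BL/6 was sequenced, with 2 females and 2 males in each of 3 arms of 4. The PBS arm received phosphate-buffered saline. The LPS arm received lipopolysaccharide, a bacterial cell wall component, intraperitoneally at 0.5 mg/kg on each of 7 days, and the LPS+DMA arm received the same LPS course together with daily intraperitoneal N,N-dimethylacetamide (DMA), a solvent (its dose: not given in the sources used here). Brains were collected on day 7, each mouse gave 1 library, and all mice carried the same strain background with no transgene named. The labels call the material whole brain, so every value is an average over all cell types, and fewer cells of a type and less RNA per cell cannot be told apart. DMA without LPS was not analysed here. Judging by its title, the study asked whether DMA lessens brain inflammation brought on by LPS, and all 3 pairs of arms were compared.

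A voltage-gated potassium channel is built from pore subunits that sense the membrane potential, and the family of the subunit decides how quickly the channel opens and closes. Inward rectifiers and background channels hold the resting potential, calcium- and sodium-activated channels follow the ions that enter during firing, and the silent subunits form no channel alone but join other voltage-gated subunits. In brain these genes are read mainly in neurons, each in its own set of regions and cell types, while a few belong to astrocytes, microglia or the choroid plexus, the tissue that secretes cerebrospinal fluid.

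Libraries differed in their markers of brain regions, and these values belong beside every comparison below. Libraries are named by arm and by the sex and number of the mouse (F1, F2, M1, M2), and values are always given in that order. Gabra6, which marks cerebellar granule cells, stood at 74.6, 0, 0 and 0 FPKM in PBS, 114, 0, 15.6 and 90.5 FPKM in LPS, and 0, 0, 0 and 0.170 FPKM in LPS+DMA. Thus 3 of 4 LPS libraries, 1 PBS library and no LPS+DMA library held 1 FPKM (sequenced fragments per kilobase of gene after scaling for library depth) or more of it, although all are labelled whole brain. The summed level of 10 cerebellar markers ran from 25.5 to 515 FPKM in PBS, from 27.1 to 779 FPKM in LPS and from 16.5 to 25.8 FPKM in LPS+DMA. For 10 markers of cortex and hippocampus the sums ran from 627 to 1126, from 39.8 to 1172 and from 1038 to 1560 FPKM, and the highest LPS value was that of LPS F2. No marker of either list was at 0 in all libraries of an arm. The 10 general neuronal markers summed to 1278 to 1357 FPKM in PBS, 1293 to 1540 in LPS and 1172 to 1493 in LPS+DMA. The sums of 7 striatal markers ran from 37.5 to 62.5 FPKM in PBS, from 28.2 to 193 in LPS (median 41.2) and from 38.5 to 636 in LPS+DMA (median 332), and 1 of the 7 was called, higher in LPS+DMA than in LPS. Those of 8 oligodendrocyte markers ran from 566 to 1538, from 1105 to 2071 and from 499 to 1050 FPKM, and 1 of the 8 was called, lower in LPS+DMA than in LPS. Those of 6 red blood cell markers ran from 71.1 to 116, from 243 to 946 and from 29.1 to 296 FPKM, and none of the 5 tested was called. Over all genes tested 5.79% were called higher and 3.88% lower in LPS+DMA than in LPS. None of these markers was at 0 in all libraries of an arm, and the part of striatal and oligodendrocyte RNA in the channel gene results was not tested. Depth, recovered from the values, was 27.5 to 41.4 M (megareads) per library, and LPS F2 also stood apart by its ribosomal RNA share, 0.0499% of reads against 3.60% to 10.9% in the other 11.

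Among the abundant channel genes were the background channel gene Kcnk1, with a mean over the 12 libraries of 40.5 FPKM, Kcna2 with 37.6, Kcnj4 with 32.0 and Kcnc1 with 27.4 FPKM. FPKM is a level per gene length and can be compared between genes. The 77 genes together summed to 612 ± 53.2 FPKM in PBS, 584 ± 33.3 FPKM in LPS and 695 ± 96.4 FPKM in LPS+DMA (SD, n = 4 each), and the ranges of the arms overlapped. The other 15 genes did not reach 0.5 FPKM in 2 libraries and were not tested. Among these, Kcna7, Kcnk16 and Kcnj1 had 0 reads in all 12 libraries. With reads taken as independent, this allows at most 0.0529 FPKM in any library for Kcna7, 0.0485 for Kcnk16 and 0.0346 for Kcnj1 (3 reads, counting error only). If both ends of a fragment were counted, these limits are too low. The remaining 12, Kcnk5, Kcnh8, Kcnq1, Kcnk15, Kcnk7, Kcna10, Kcne3, Kcnn4, Kcnj15, Kcnv2, Kcnk18 and Kcne1, were detected at low levels.

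With LPS+DMA set against LPS, 20 of the 62 tested channel genes passed an adjusted p of 0.05 (limma on log2(FPKM + 1), Benjamini-Hochberg over all 19571 genes), which is 32.3% of them, where 9.67% of all genes tested passed. Of these, 15 were higher in LPS+DMA (24.2% of the channel genes, 5.79% of all genes) and 5 were lower (8.06% of the channel genes, 3.88% of all genes). The 3 channels that the rule leaves out were all lower in LPS+DMA than in LPS, 2 of them called, and are not in these counts. The higher genes included Kcnj4, Kcnh3, Kcnf1, Kcnv1, Kcnq5, Kcnk2, Kcnh4, Kcnq3, Kcnh1, Kcns2, Kcnj6, Kcng3 and Kcnj2, and the lower ones were Kcng4, Kcne2, Kcnj14, Kcnj16 and Kcnk13. The median log2 change of the 62 genes was 0.24, against 0.01 over all genes tested. The 4 libraries of each arm did not overlap for 7 of the 62 genes (11.3%), a share close to the 12.2% of all genes for which this held. They included Kcng3, Kcnh1, Kcnh3, Kcnq5 and the uncalled Kcng2, all higher in LPS+DMA. Plain per-million scaling, which moved the median of all genes to -0.11, called 22 channel genes, 14 higher and 8 lower, among 2883 genes called in all. Voom on recovered reads called 22, of which 19 were higher and 3 lower, among 2088 genes. With no filter on low values, limma called 0 channel genes (35 at an unadjusted p under 0.05) among 83 genes in all, and with only the 8 libraries of both arms in the fit it called 0 (34 at an unadjusted p under 0.05) among 5 genes.

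These calls rest on 3 LPS libraries. Leaving out LPS F1, LPS M1 or LPS M2 left 0 of the channel genes called by limma (29, 32 and 28 had an unadjusted p under 0.05). Leaving out LPS F2 raised the count to 33. The count over all genes moved the same way, from 1892 to 11, 7 and 22, and to 3480 without LPS F2. The 3 libraries are those with Gabra6 of 1 FPKM or more, and they lay apart from all 4 LPS+DMA libraries for 18 of the 20 genes (90%, against 96.6% of the 1892 genes called in all). LPS F2 lay within the LPS+DMA range for 12 of the 20 genes (60%, against 33.1% of all called genes). With a score of forebrain minus cerebellar markers in the fit 0 channel genes were called (10 at an unadjusted p under 0.05). The same fit called 0 of all 19571 genes (1522 at an unadjusted p under 0.05). The median size of the change over the 20 genes was 0.56 in place of 1.24 on the log2 scale. Without the 4 libraries that held Gabra6, which leaves LPS F2 alone in its arm, that median was 0.51. With choroid plexus and red blood cell scores in the fit 0 channel genes were called (5 at an unadjusted p under 0.05), and that median was 0.93. This fit too called 0 of all genes (701 at an unadjusted p under 0.05). The direction of all 20 changes was the same in each of these fits, but the 20 were chosen from these same libraries, so a kept direction does not support them. Some changes were smaller than their SE, such as Kcnh4 at 0.20 (SE 0.28) and Kcng4 at -0.60 (SE 0.73) with the forebrain score. The arm and the region content of the LPS libraries cannot be told apart.

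**Figure D1:**
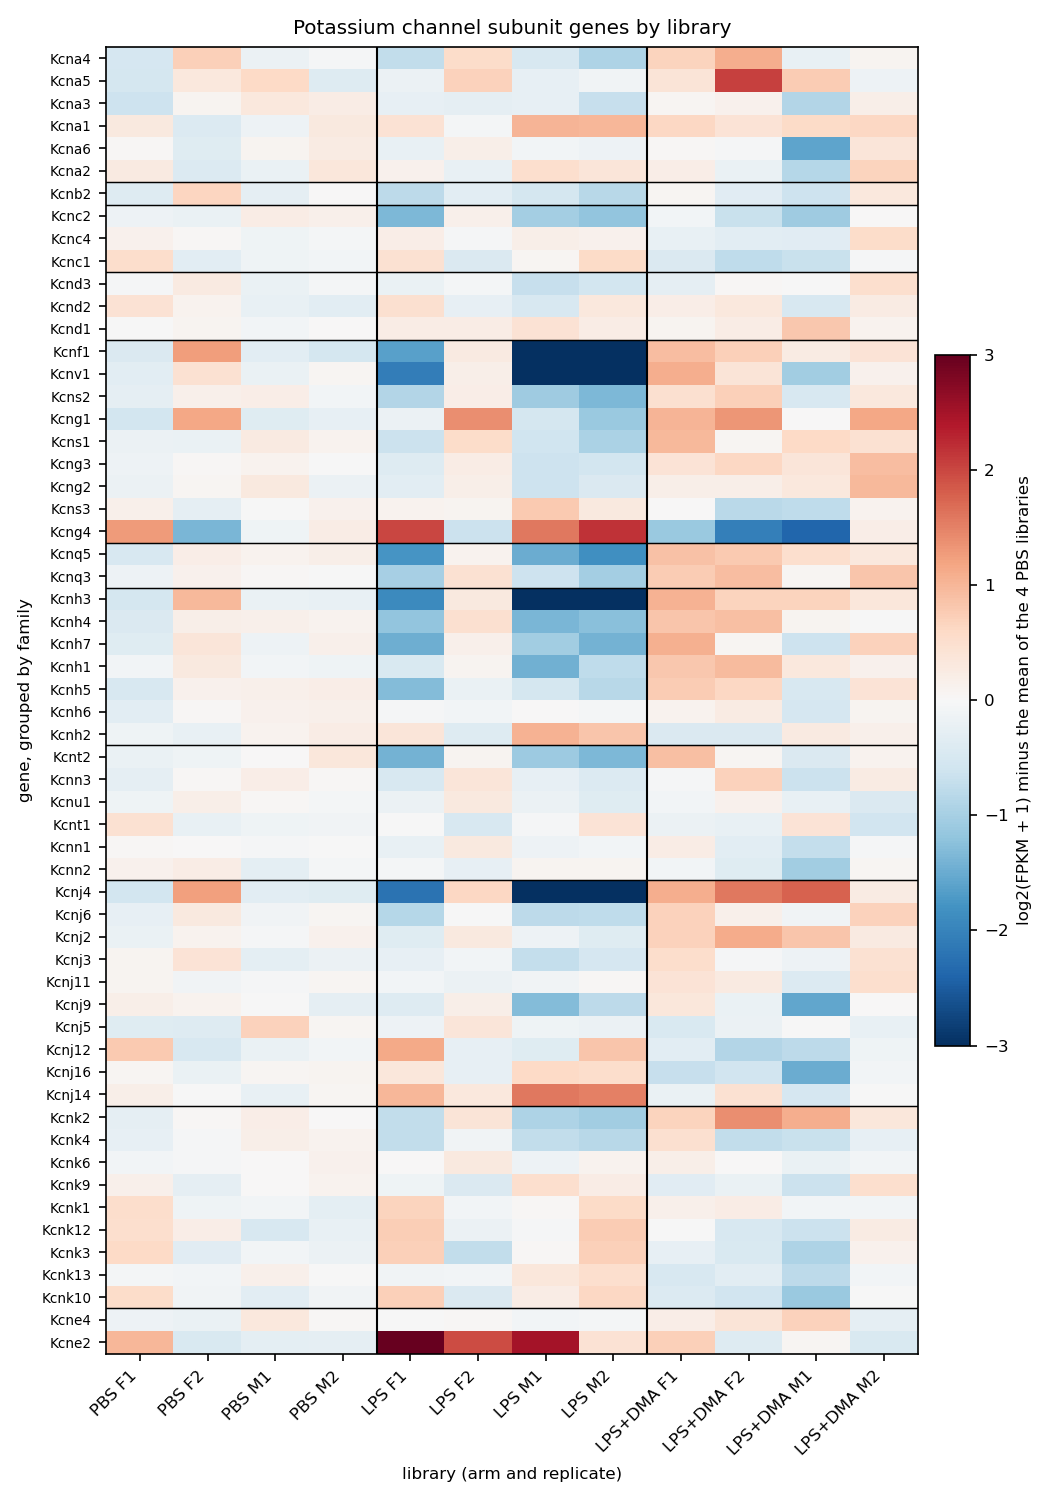
Heat map of 58 tested channel genes (rows, grouped by family) in the 12 libraries (columns, grouped by arm). Colour gives log2(FPKM + 1) minus the mean of the 4 PBS libraries and is capped at 3 in both directions; the darkest blue cells, for Kcnj4, Kcnh3, Kcnf1 and Kcnv1, lie in LPS M1 and M2, while LPS F2 is close to PBS for these genes.

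Stretches upstream of the annotated start are shown for 4 of the 20 genes: among the genes with 1 start in the RefSeq promoter table (GRCm38.p6), these are the 2 risers of largest change and both falling genes. The table held 13 of the 20 and 53 of the 77 genes. Each is the 150 bases before the start, read 5′ to 3′ on the gene's strand. Capitals mark matches on either strand to GGGCGG (reverse CCGCCC, the GC box), TATAAA (reverse TTTATA, the TATA box) or TGACG (reverse CGTCA, the core of the cyclic AMP response element); the 3 motifs do not overlap each other in the matches shown.
Kcnj4 (chr15:79505242-79505391, minus strand): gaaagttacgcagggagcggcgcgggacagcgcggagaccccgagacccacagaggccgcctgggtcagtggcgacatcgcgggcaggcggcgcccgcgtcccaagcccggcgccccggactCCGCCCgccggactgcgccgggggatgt
Kcnf1 (chr12:17176889-17177038, minus strand): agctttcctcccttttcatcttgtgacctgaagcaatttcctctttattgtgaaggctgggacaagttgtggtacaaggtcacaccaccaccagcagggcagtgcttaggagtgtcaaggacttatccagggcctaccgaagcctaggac
Kcng4 (chr8:119635681-119635830, minus strand): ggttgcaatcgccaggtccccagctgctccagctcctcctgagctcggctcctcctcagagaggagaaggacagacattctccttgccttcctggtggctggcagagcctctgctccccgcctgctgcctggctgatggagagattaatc
Kcnk13 (chr12:99964349-99964498, plus strand): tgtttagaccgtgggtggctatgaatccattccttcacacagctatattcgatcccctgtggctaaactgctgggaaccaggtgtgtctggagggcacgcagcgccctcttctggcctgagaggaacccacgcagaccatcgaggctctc
The Kcnj4 stretch held 1 match, to the GC box, and 76.7% G or C, above the upper quartile of 64.0% over 32851 promoters. Those of Kcnf1 (50.7%), Kcng4 (61.3%) and Kcnk13 (56.7%) held 0 matches and lay within the quartiles of 46.0% and 64.0%. Of the 22 promoters listed for called genes, 8 held the GC box, against 28.62% of all promoters. TATAAA was found for Kcnj16 alone and TGACG for Kcne2 alone, against 7.57% and 13.32% of all promoters. A match describes these letters only.

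Inward rectifiers pass potassium more easily into the cell than out of it and so steady the resting potential. Of 10 tested 3 rose and 2 fell, where 5.79% of all genes were called higher and 3.88% lower. The median log2 change of the 10 was 0.25 (0.07 under plain per-million scaling). Kcnj4 (ENSMUSG00000044216, chromosome 15, 79367915 to 79389442, minus strand, GRCm39) encodes a strong rectifier of forebrain neurons. Its level was 15.8, 56.7, 18.5 and 18.0 FPKM in PBS, 4.26, 36.6, 0.195 and 0.178 FPKM in LPS, and 50.9, 72.8, 82.0 and 28.2 FPKM in LPS+DMA. LPS M1 and M2 were the lowest by far, and LPS F2 lay among the LPS+DMA libraries. Kcnj4 was higher in LPS+DMA than in LPS, with a log2 change of 3.76 (SE 0.77, adjusted p = 0.0216), the largest among the channel genes, and this value was 1.36 with the forebrain score and 0.97 without the 4 Gabra6 libraries.

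Kcnj2, a close relative of Kcnj4 in the strong rectifier group, stood at 2.24, 2.99, 2.58 and 3.03 FPKM in PBS, 1.86, 3.54, 2.30 and 1.89 FPKM in LPS, and 5.01, 6.98, 5.61 and 3.47 FPKM in LPS+DMA. All LPS+DMA libraries but M2 were above every LPS library, and Kcnj2 had a log2 change of 0.88 (SE 0.19, adjusted p = 0.0240). Kcnj6 encodes a subunit of the rectifiers that G proteins open after neurotransmitters bind, and its level ran from 1.55 to 3.58 FPKM in LPS and from 3.32 to 6.52 in LPS+DMA. Kcnj6 was higher in LPS+DMA by a log2 change of 0.96 (SE 0.23, adjusted p = 0.0298). Its partners in the same channels were not called: Kcnj3 ran from 13.8 to 22.1 FPKM in LPS and 21.0 to 34.1 in LPS+DMA, and Kcnj9 from 10.9 to 32.3 and 9.01 to 36.4 FPKM.

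The other 2 called rectifier genes were lower in LPS+DMA. Kcnj14 encodes a strong rectifier known from motor neurons of the brainstem and stood at 1.13, 0.858, 0.608 and 0.937 FPKM in PBS, 2.77, 1.32, 4.63 and 4.33 FPKM in LPS, and 0.625, 1.58, 0.315 and 0.863 FPKM in LPS+DMA. All LPS libraries but F2 were above every PBS and LPS+DMA library. Kcnj14 had a log2 change of -1.17 (SE 0.28, adjusted p = 0.0307), and -0.50 with the forebrain score; the sum of 8 hindbrain markers ran from 2.74 to 147 FPKM in LPS and from 0.588 to 10.5 in LPS+DMA, where 2 of the 8 were at 0 in all libraries, and its part in the Kcnj14 value was not tested apart from that score.

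Kcnj16 encodes the partner of Kcnj10 in astrocyte channels that take up potassium released by neurons. It stood at 10.1, 8.34, 10.2 and 10.4 FPKM in PBS, 12.6, 8.06, 15.1 and 14.4 FPKM in LPS, and 5.63, 6.20, 2.82 and 9.11 FPKM in LPS+DMA. LPS F2 was the only LPS library within the LPS+DMA range, and the lowest of all 12 was LPS+DMA M1. Kcnj16 fell in LPS+DMA against LPS with a log2 change of -1.01 (SE 0.26, adjusted p = 0.0374). Kcnj10, left out of the 77 genes by the rule, ran from 44.9 to 96.0 FPKM in LPS and from 16.5 to 53.0 FPKM in LPS+DMA, with a log2 change of -1.29 (SE 0.31, adjusted p = 0.0294). Of 8 astrocyte markers 1 was called higher and 2 lower, where 5.79% of all genes were higher and 3.88% lower. The sum of these markers ran from 489 to 576 FPKM in LPS and from 399 to 529 in LPS+DMA, and its part in the Kcnj16 result was not tested.

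Silent subunits join other voltage-gated subunits and change their gating. Of 9 tested 4 rose and 1 fell, with a median log2 change of 0.93, where 5.79% of all genes were called higher and 3.88% lower. Kcnf1 (ENSMUSG00000051726, chromosome 12, 17222101 to 17226889, minus strand, GRCm39) stood at 14.7, 49.7, 16.2 and 13.8 FPKM in PBS, 5.81, 24.6, 1.33 and 1.45 FPKM in LPS, and 39.0, 33.7, 24.1 and 27.2 FPKM in LPS+DMA. PBS F2 was the highest and LPS M1 and M2 were the lowest. Kcnf1 was higher in LPS+DMA with a log2 change of 2.49 (SE 0.50, adjusted p = 0.0214).

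Kcnv1 stood at 10.2, 18.3, 11.3 and 13.5 FPKM in PBS, 2.33, 14.9, 0.515 and 0.446 FPKM in LPS, and 28.7, 17.5, 5.77 and 14.3 FPKM in LPS+DMA. LPS F2 exceeded 2 of the LPS+DMA libraries, so the arms overlapped, and Kcnv1 had a log2 change of 2.23 (SE 0.53, adjusted p = 0.0289). Kcns2 ran from 1.45 to 6.08 FPKM in LPS and 3.44 to 9.17 in LPS+DMA, with a log2 change of 1.03 (SE 0.28, adjusted p = 0.0437). Kcng3, the rarest gene called, stood at 0.487, 0.695, 0.778 and 0.629 FPKM in PBS, 0.264, 0.927, 0.0625 and 0.129 FPKM in LPS, and 1.19, 1.53, 1.13 and 2.11 FPKM in LPS+DMA. Its arms did not overlap, and Kcng3 was higher in LPS+DMA with a log2 change of 0.91 (SE 0.19, adjusted p = 0.0233).

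Kcng4 went the other way within the same family. It stood at 14.1, 1.44, 4.69 and 6.36 FPKM in PBS, 24.2, 2.99, 17.8 and 27.1 FPKM in LPS, and 1.88, 0.516, 0.200 and 6.24 FPKM in LPS+DMA. The 3 LPS libraries with Gabra6 and PBS F1, the PBS library with Gabra6, were the 4 highest of the 12. Kcng4 fell in LPS+DMA against LPS with a log2 change of -2.61 (SE 0.72, adjusted p = 0.0450), and the value was -0.60 with the forebrain score in the fit. The remaining silent subunits, Kcng1, Kcng2, Kcns1 and Kcns3, were not called.

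**Figure D2:**
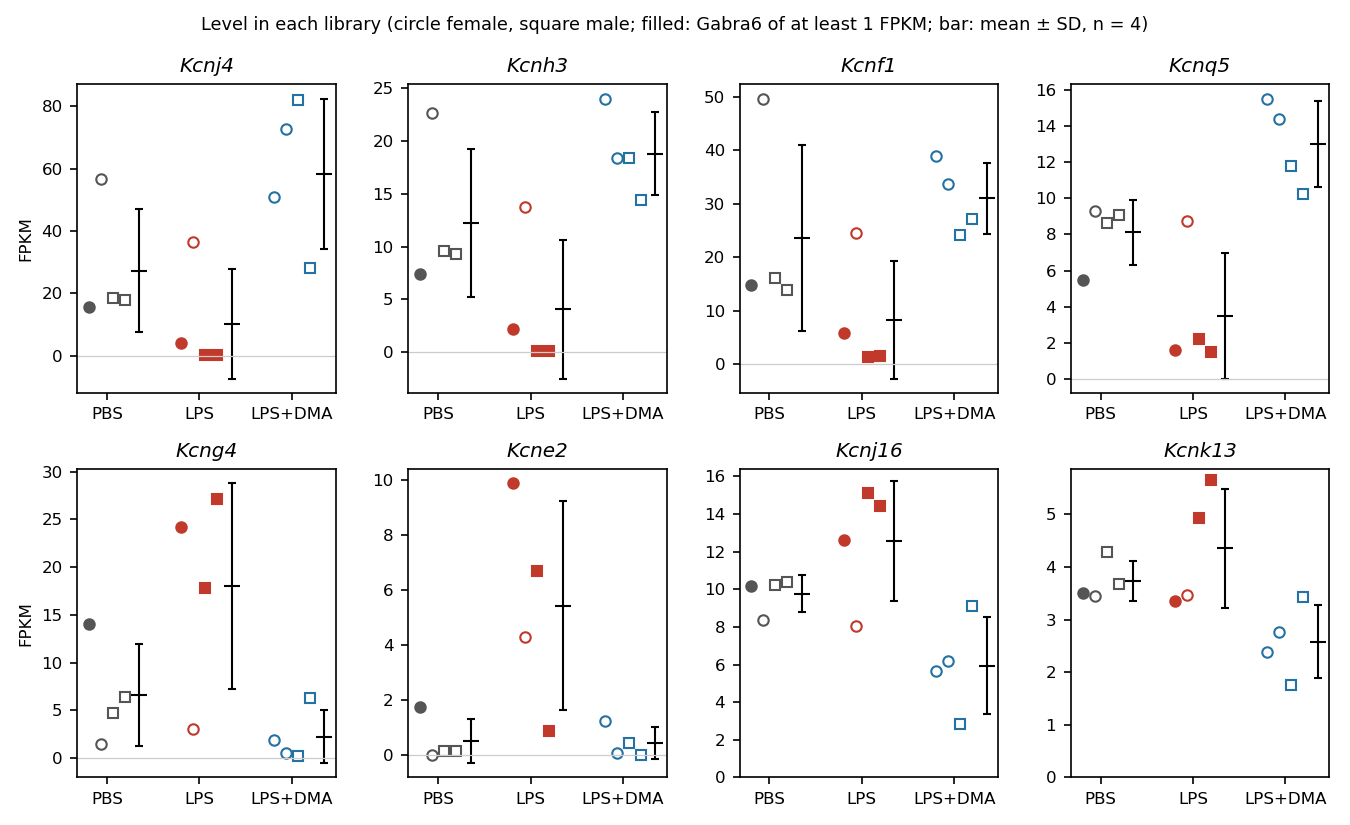
FPKM of 8 called channel genes in each library, by arm (circles females, squares males, filled symbols libraries with Gabra6 of at least 1 FPKM, black bars mean ± SD, n = 4; linear axes, SD bars of low arms can pass below 0). In the upper 4 genes the filled LPS symbols lie at the bottom and the open one, LPS F2, lies apart above them; in the lower panels LPS values are mostly the highest.

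The Kcnq family carries the slow M current, which acetylcholine switches off through muscarinic receptors and which keeps neurons from firing repeatedly. Kcnq5 stood at 5.47, 9.30, 8.64 and 9.05 FPKM in PBS, 1.61, 8.72, 2.21 and 1.52 FPKM in LPS, and 15.5, 14.4, 11.8 and 10.3 FPKM in LPS+DMA. Kcnq5 was higher in LPS+DMA with a log2 change of 1.87 (SE 0.36, adjusted p = 0.0203), and its arms did not overlap.

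Kcnq3, another M channel gene, ran from 5.21 to 16.2 FPKM in LPS and 12.1 to 22.7 in LPS+DMA, with a log2 change of 1.19 (SE 0.28, adjusted p = 0.0288). LPS F2 was the only LPS library that reached the LPS+DMA range.

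The Kcnh family holds channels of 3 kinds, the ether-à-go-go (EAG) group, the related ERG group and the ELK group. Of 7 tested genes 3 rose and none fell, with a median log2 change of 1.19, where 5.79% of all genes were called higher and 3.88% lower. Kcnh3, an ELK gene of forebrain neurons, stood at 7.36, 22.7, 9.55 and 9.30 FPKM in PBS, 2.21, 13.8, 0.10 and 0.102 FPKM in LPS, and 24.0, 18.4, 18.4 and 14.4 FPKM in LPS+DMA. LPS M1 and M2 were the lowest, the lower of them with 22 reads, and all LPS libraries lay below all LPS+DMA libraries. Kcnh3 was higher in LPS+DMA with a log2 change of 2.82 (SE 0.56, adjusted p = 0.0213). It overlaps the gene Mcrs1 on the opposite strand, and the labels describe preparations with and without strand marking, so reads of the pair may not be told apart.

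Kcnh4, the other tested ELK gene, ran from 0.0664 to 2.85 FPKM in LPS and 1.75 to 4.13 in LPS+DMA, with a log2 change of 1.28 (SE 0.34, adjusted p = 0.0412). Kcnh1, the founding EAG gene, stood at 8.58, 11.6, 8.54 and 8.34 FPKM in PBS, 6.40, 9.85, 2.77 and 5.03 FPKM in LPS, and 16.9, 18.7, 11.6 and 10.1 FPKM in LPS+DMA. Its arms did not overlap. Kcnh1 was higher in LPS+DMA with a log2 change of 1.19 (SE 0.20, adjusted p = 0.0186), the smallest adjusted p among the channel genes. The ERG gene Kcnh2 was not called, and ran from 6.44 to 19.2 FPKM in LPS and 6.24 to 10.8 in LPS+DMA.

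Background channels of the Kcnk family are open at rest and answer to stretch, acid and anaesthetics. Of 9 tested 1 rose and 1 fell, with a median log2 change of -0.24 (-0.43 under plain per-million scaling). Over all genes tested 5.79% were called higher and 3.88% lower, so 1 of each among 9 does not set the family apart. Kcnk2, a stretch- and lipid-sensitive channel, stood at 6.49, 8.22, 9.31 and 8.08 FPKM in PBS, 4.36, 10.7, 3.75 and 3.35 FPKM in LPS, and 13.3, 22.7, 18.1 and 10.4 FPKM in LPS+DMA. LPS F2 passed LPS+DMA M2 by a small margin and the other LPS libraries lay below the whole LPS+DMA arm. Kcnk2 was higher in LPS+DMA with a log2 change of 1.46 (SE 0.29, adjusted p = 0.0213).

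Kcnk13, which sets the resting potential of microglia, stood at 3.51, 3.44, 4.28 and 3.67 FPKM in PBS, 3.35, 3.46, 4.94 and 5.66 FPKM in LPS, and 2.39, 2.76, 1.76 and 3.42 FPKM in LPS+DMA. Kcnk13 fell in LPS+DMA against LPS with a log2 change of -0.58 (SE 0.16, adjusted p = 0.0475), the smallest change called, and the arms overlapped. The sum of 8 microglial markers ran from 134 to 165 FPKM in PBS, from 202 to 278 in LPS and from 122 to 155 in LPS+DMA. Of the 8, 5 were called lower, where 3.88% of all genes were, and none was at 0 in all libraries of an arm. The part of this sum in the Kcnk13 result was not tested. Kcnk1, the most abundant channel gene, was not called: it stood at 52.5, 33.0, 34.0 and 29.6 FPKM in PBS, 58.4, 34.0, 37.6 and 54.7 FPKM in LPS, and 40.6, 42.3, 34.5 and 34.4 FPKM in LPS+DMA, with a log2 change of -0.24 (SE 0.20, adjusted p = 0.441). LPS F1, LPS M2 and PBS F1, all libraries with Gabra6, were the 3 highest.

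Kcne genes encode single-span helper proteins that alter the pore subunits they bind. Kcne2, known from the choroid plexus, stood at 1.72, 0, 0.121 and 0.141 FPKM in PBS, 9.90, 4.28, 6.71 and 0.853 FPKM in LPS, and 1.23, 0.0412, 0.415 and 0 FPKM in LPS+DMA. The 2 libraries at 0 could have held up to 0.0460 to 0.0653 FPKM (3 reads taken as independent, counting error only), or more if both ends of a fragment were counted. LPS F1, F2 and M1 were above all other libraries, and LPS M2 lay within the range of the other arms. Kcne2 fell in LPS+DMA against LPS with a log2 change of -1.99 (SE 0.46, adjusted p = 0.0279). The sum of 10 choroid plexus markers ran from 6.03 to 339 FPKM in PBS, from 189 to 1808 in LPS and from 4.81 to 430 in LPS+DMA. Of the 10, 6 were called lower, where 3.88% of all genes were, and none was at 0 in all libraries of an arm. With choroid plexus and red blood cell scores in the fit the Kcne2 change was -0.14 (SE 0.43). Kcnj13, another choroid plexus channel gene, which the rule leaves out, had a log2 change of -1.73 (SE 0.38, adjusted p = 0.0250). Kcnj8, the pore of vascular channels that close when ATP is plentiful and also left out, did not pass, at -0.40 (SE 0.20, adjusted p = 0.216).

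**Figure D3:**
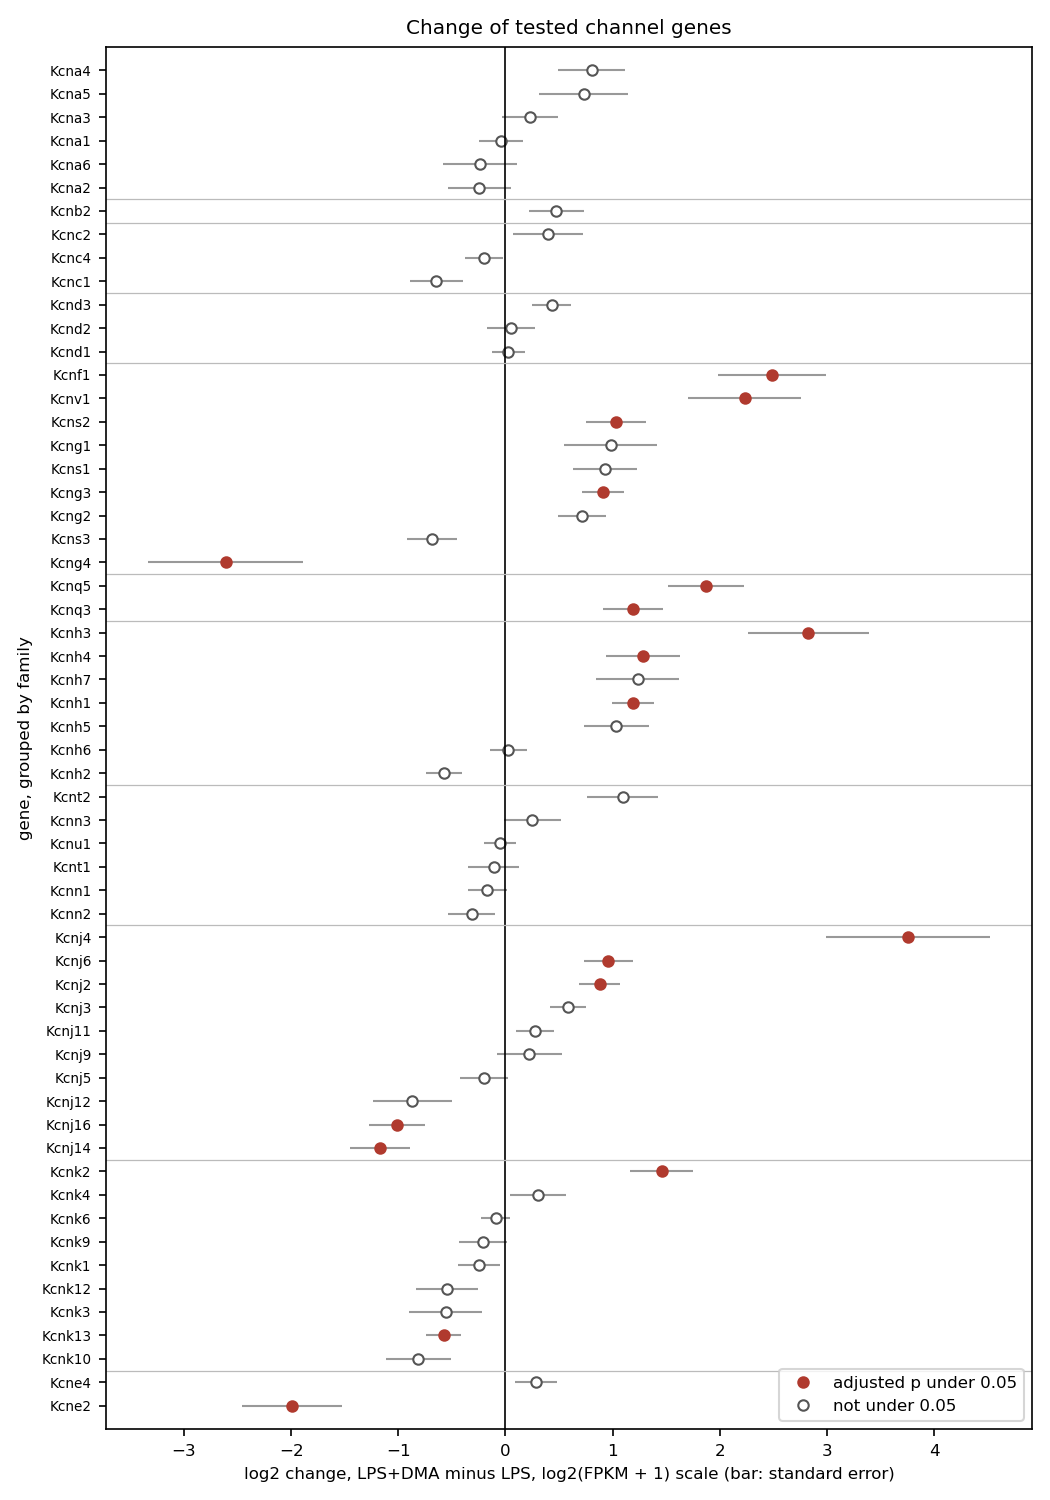
Log2 change in LPS+DMA against LPS (horizontal axis, log2(FPKM + 1) scale) for 58 tested channel genes, grouped by family, with standard errors as bars. Filled points are 18 genes with an adjusted p under 0.05, from Kcnj4 at 3.76 to Kcng4 at -2.61; open points are the other genes.

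None of the tested genes that the symbol rule took was called in 4 families, Kcna, Kcnc, Kcnd and the calcium- and sodium-activated channels. Over all genes tested 9.67% were called, so 0 among so few genes does not set a family apart. The calcium-activated pore gene Kcnma1, which the symbol rule leaves out, was called. The Kcna family, whose members control firing along axons, had 0 of 6 called and a median log2 change of 0.09, which became -0.08 under plain per-million scaling. Kcna2, its most abundant member, stood at 42.0, 26.3, 30.3 and 44.5 FPKM in PBS, 38.6, 29.6, 49.8 and 44.9 FPKM in LPS, and 40.1, 30.3, 18.7 and 55.7 FPKM in LPS+DMA. Its arms overlapped widely and it had a log2 change of -0.24 (SE 0.29, adjusted p = 0.619), while Kcna4, the member with the smallest p, had a log2 change of 0.80 (SE 0.31, adjusted p = 0.122).

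The Kcnc family lets neurons such as cerebellar and inhibitory cells fire fast, and 0 of 4 were called, with a median of -0.42. Kcnc1 stood at 40.9, 22.3, 25.7 and 26.7 FPKM in PBS, 39.1, 20.7, 29.4 and 42.5 FPKM in LPS, and 20.6, 16.2, 17.4 and 27.2 FPKM in LPS+DMA, and its arms overlapped. LPS F1, LPS M2 and PBS F1, all libraries with Gabra6, were the 3 highest.

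The Kcnd family carries the A current, which opens and closes quickly below the firing threshold, and 0 of 3 were called. Its median was 0.05, and -0.11 under plain per-million scaling. Kcnd2 was the most abundant, with a log2 change of 0.05 (SE 0.22, adjusted p = 0.904), and Kcnd3 had the smallest p, with a log2 change of 0.43 (SE 0.19, adjusted p = 0.156). Of the calcium- and sodium-activated genes 0 of 6 were called, with a median of -0.08 (-0.21 under plain per-million scaling). These 6 do not include Kcnma1, the pore of the large-conductance calcium-activated channel, whose symbol the rule does not take and which was higher in LPS+DMA with a log2 change of 0.80 (SE 0.18, adjusted p = 0.0278). Among the 6 the sodium-activated Kcnt1 was the most abundant, with a log2 change of -0.11 (SE 0.24, adjusted p = 0.800), and Kcnt2 had the smallest p, with a log2 change of 1.10 (SE 0.33, adjusted p = 0.0595).

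Partner proteins assemble with these channels or hold them in place in the membrane. A list of 17 tested genes held accessory subunits and also Kcnma1, a pore gene placed there because its symbol falls outside the rule. In it 2 genes were called, both higher, Kcnma1 and the accessory gene Kcnip2, where 5.79% of all genes were called higher. The median of the list was 0.09 (-0.09 under plain per-million scaling). Kcnip2, a calcium-binding partner of the Kcnd channels, stood at 10.2, 26.8, 16.5 and 11.9 FPKM in PBS, 4.14, 27.2, 1.12 and 1.28 FPKM in LPS, and 43.3, 40.8, 29.5 and 14.0 FPKM in LPS+DMA, with a log2 change of 2.56 (SE 0.56, adjusted p = 0.0247). It shared the layout of Kcnj4, with LPS M1 and M2 lowest and LPS F2 within the LPS+DMA range. Kcnma1 ran from 8.18 to 17.5 FPKM in LPS and 15.8 to 24.3 in LPS+DMA. LPS F2 was again within the LPS+DMA range and the other LPS libraries lay below it.

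Of 12 tested genes that place channels in the membrane 4 were higher and none lower, with a median of 0.30 (0.12 under plain per-million scaling), where 5.79% of all genes were higher and 3.88% lower. They were the scaffold genes Dlg1, 0.46 (SE 0.09, adjusted p = 0.0214), and Dlg4, 0.91 (SE 0.19, adjusted p = 0.0218), the secreted synaptic organiser Lgi1, 0.56 (SE 0.14, adjusted p = 0.0353), and the spectrin gene Sptbn4, 0.37 (SE 0.11, adjusted p = 0.0499), given as log2 changes. Of 20 sodium, calcium and pacemaker channel genes 9 were higher and 1, the pacemaker gene Hcn4, was lower, beside the same shares of all genes, with a median of 0.23 (0.05 under plain per-million scaling). The 4 with the smallest p were Cacna1e, 1.27 (SE 0.25, adjusted p = 0.0213), Scn3b, 1.36 (SE 0.31, adjusted p = 0.0277), Scn3a, 1.07 (SE 0.25, adjusted p = 0.0291), and Cacna1h, 1.37 (SE 0.33, adjusted p = 0.0307), all genes of pore or helper subunits and all higher in LPS+DMA.

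With LPS set against PBS, 0 of the 62 channel genes were called, and 0.0102% of all genes were (2 genes). At an unadjusted p under 0.05 there were 22 (35.5%), against 11% of all genes, and voom on recovered reads called 0. The arms did not overlap for 2 channel genes (3.23%), against 6.89% of all genes. These were Kcnj14, whose LPS values of 1.32 to 4.63 FPKM were above the PBS values of 0.608 to 1.13, and Kcnd1, at 2.24 to 2.79 FPKM in LPS and 1.65 to 1.96 in PBS. The median log2 change was -0.09 over the channel genes and -0.01 over all genes.

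The count in this comparison turned on 1 library. Without LPS F2, 16 channel genes were called, 13 lower and 3 higher in LPS than in PBS, among 672 genes called in all. With all libraries, Kcnj4 was at -2.58 (SE 0.77, adjusted p = 0.311), Kcnh3 at -2.14 (SE 0.56, adjusted p = 0.283) and Kcne2 at 1.97 (SE 0.46, adjusted p = 0.242) on the log2 scale, none of which passed. For Kcnj4 and Kcnh3, LPS F1, M1 and M2 lay below all PBS libraries and LPS F2 lay within the PBS range.

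With LPS+DMA set against PBS, 0 of the 62 channel genes were called, and 0.0102% of all genes were (2 genes), and voom called 0. At an unadjusted p under 0.05 there were 9 (14.5%), against 11.4% of all genes. The median was 0.06 over the channel genes and 0.00 over all genes. Side by side with the other comparisons, which share these libraries, Kcnj4 stood at 1.17 (SE 0.77, adjusted p = 0.566), Kcng4 at -1.33 (SE 0.72, adjusted p = 0.493) and Kcne2 at -0.02 (SE 0.46, adjusted p = 0.989). A p that misses the threshold does not show that the arms were alike.

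**Figure D4:**
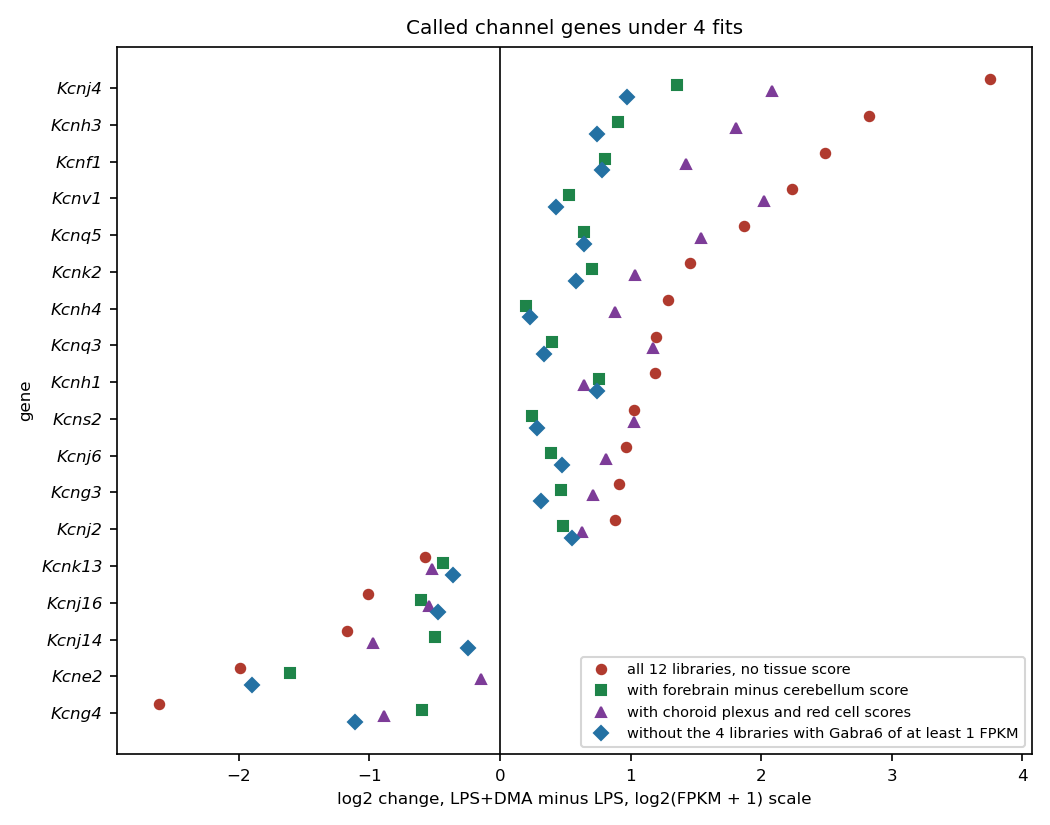
Log2 change in LPS+DMA against LPS for 18 called genes under 4 fits: all 12 libraries, with a forebrain minus cerebellum marker score, with choroid plexus and red blood cell scores, and without the 4 libraries with Gabra6 of at least 1 FPKM. Every point keeps the sign of the first fit, from whose calls the genes were chosen. For Kcnj4 the values are 3.76, 1.36, 2.09 and 0.97, and for Kcne2 the score of choroid plexus and blood brings -1.99 to -0.14.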

How the data were processed

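Brain RNA of 12 mice was sequenced, and the authors deposited FPKM values for 56748 genes, 1 column per library; per the labels, replicates are separate mice. The submitters' processing notes name build GRCm39 and, with no role or order, STAR, HISAT2 2.2.1, GATK, edgeR 4.0.16, DESeq2 1.42.0, fastp and featureCounts 2.0.6. FPKM times gene length came in whole reads within 0.1 for 100% of values of up to 1000 reads, which gave the depth (median 34.4 M, megareads). No library was a copy of another (log2 correlation 0.889 to 0.981).

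Genes with at least 0.5 FPKM in at least 2 libraries (19571) were fitted as log2(FPKM + 1), which understates changes of low genes, with limma 3.58.1 in R 4.3.3, with arm and sex as terms, moderated variance with trend, and Benjamini-Hochberg adjustment. The fit was tested on simulated data. The channel genes and the gene lists were chosen with earlier results of these data known. Statistics are given for called channel genes, for the most abundant and the smallest-p gene of each family, the 3 channels left out, and up to 4 genes of each other list. Levels may be given for any channel gene. Some genes that the rule allows are not reported here and are left out of the figures, but they stay in the counts. The alternatives covered pseudocount, filter, scaling, variance model, terms, tissue scores, voom on recovered reads and each library left out. Coordinates are GRCm39 from the table; promoters are GRCm38.p6 from RefSeq.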

Additional observations from a re-analysis of the deposited data

Results flagged for a closer look

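In each arm of 4, the highest or lowest library was set against the others for 28 channel genes, and a library was taken as standing apart when its gap to the nearest, as a share of the arm's range, passed Dixon's 95% critical value. Of 84 groups 16 met it, and chance gives about 1 in 20. The 28 genes were those called in LPS+DMA against LPS and the most abundant and smallest-p gene of each family. They were thus chosen from these same data, so the count cannot be set against that rate. In LPS, F2 was the high library for Kcnj4 (36.6 FPKM), Kcnv1 (14.9), Kcnh3 (13.8), Kcnk2 (10.7), Kcnq5 (8.72), Kcnt2 (3.62), Kcnj6 (3.58) and Kcnh4 (2.85). In PBS, F2 was the high library for Kcnj4 (56.7 FPKM), Kcnf1 (49.7), Kcnh3 (22.7) and Kcnh1 (11.6), and the low one for Kcnj16 (8.34). PBS F1 was the high library for Kcnt1 (20.2 FPKM) and Kcne2 (1.72) and the low one for Kcnh4 (1.05). No LPS+DMA library stood apart by this measure for these genes. Groups of genes measured in the same libraries are not independent.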

How the results depend on the processing

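For LPS+DMA against LPS, 20 channel genes were called, among 1892 genes in all. Limma called 0 channel genes with no filter on low values and with only the 8 libraries of both arms in the fit. These fits had 35 and 34 at an unadjusted p under 0.05, and called 83 and 5 genes in all. It also called 0 with the forebrain score and with the choroid plexus and red blood cell scores (10 and 5 at an unadjusted p under 0.05). Those 2 fits called 0 genes in all. The fit without the 4 libraries with Gabra6 leaves LPS F2 alone in its arm, and only its size of change is given. With 1 library left out the count ran from 0 (without LPS F1, M1 or M2) to 33 (without LPS F2). All genes called in these 4 fits were 11, 7, 22 and 3480. The count was 12 without LPS+DMA F1, 13 without LPS+DMA F2 and 13 without LPS+DMA M2, among 1255, 1102 and 1129 genes. Pseudocounts of 0.1 and 0.5 and a fit without a variance trend gave 20, among 1910, 1914 and 1817 genes. A filter of 1 FPKM in 4 libraries gave 23 (among 2063), plain scaling 22 (2883), voom 22 (2088) and no sex term 17 (1513). For LPS against PBS the count was 0 to 16 with 1 library left out, and 0 in all other settings. The 16 were without LPS F2, among 672 genes called in all. For LPS+DMA against PBS it was 0 in all 25 settings. The cause of these differences was not tested, except that the fits without libraries hold fewer samples.

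The replicate numbers of the labels were not treated as pairing the mice. Deviations of same-numbered libraries correlated at -0.02 to 0.39, over 0.1 in 6 of 12 pairs. In 4 of the 12 the best match had the same number. These values cannot decide whether mice were paired, because same-numbered libraries can share region content, as PBS F1 and LPS F1 both held Gabra6. With the replicate block in place of sex, 26 channel genes were called in LPS+DMA against LPS, among 2040 genes in all. Of the 26, 18 were higher and 8 lower, and 19 were among the 20. In each of the other comparisons 0 channel genes were called.

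The 20 called genes kept their direction in all 25 settings, which cannot support them because they were chosen from these same libraries. Depth gave from 8 reads (Kcng3, lowest library) upward for the called genes other than Kcne2, which had 0 reads in 2 libraries, so low levels of such genes are known to within counting error only.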

Other observations

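LPS+DMA M1 was the lowest of the 12 libraries for 21 of the 61 channel genes without tied extremes (34.4%, against 22.8% of 17706 such genes). It was the highest for 3 of the 61 (4.92%, against 23.9% of all), so over all genes it was often extreme in both directions. The 21 genes included Kcna6, at 19.6, 18.6, 5.65 and 25.0 FPKM in LPS+DMA, and Kcnj9, at 36.4, 24.6, 9.01 and 28.5 FPKM. LPS+DMA F1 was the highest library for 12 of the 61 (19.7%, against 8.17% of all), and LPS F2 was the lowest for 0 of the 61 (against 6.30% of all).

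Kcna5, a gene of the Kcna family, stood at 0.820, 2.27, 2.98 and 1.03 FPKM in PBS, 1.32, 3.23, 1.21 and 1.45 FPKM in LPS, and 2.44, 9.87, 3.50 and 1.38 FPKM in LPS+DMA. LPS+DMA F2 was the highest library, well above LPS+DMA M1, the next. Kcnk15, which was too low to be tested, stood at 0.920 FPKM in PBS F2, and no other library passed 0.205 FPKM.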
